A study of Homo sapiens with 6 samples.

Results

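The natriuretic peptide genes and the genes that process and receive their products were described in human heart muscle cells grown in culture. The cells were differentiated from WTC11, an established line of induced pluripotent stem cells, and all were labelled WT. The 8 genes were chosen by symbol, not by their values. They are the peptide genes NPPA, NPPB and NPPC, the receptor genes NPR1, NPR2 and NPR3, and the protease genes CORIN and FURIN. All 8 were among the 38557 genes listed for each library. The cells had been kept in RPMI plus B27, a basal medium with a serum-free supplement, or in DMEM plus fatty acids. Each medium had 3 libraries, titled biological replicates 1 to 3. The culture times, the glucose and fatty acid content of the media and the number of differentiation batches are not given in the sources used here.

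Natriuretic peptides are hormones that lower blood volume and pressure. Cardiomyocytes make atrial natriuretic peptide (from NPPA) and B-type natriuretic peptide (from NPPB), both more in foetal and in stretched or overloaded heart muscle, and endothelial cells are the best-known source of C-type natriuretic peptide (from NPPC). Corin, a membrane serine protease, cuts the NPPA precursor, and furin, a protease of the secretory pathway, cuts the NPPB precursor. The receptors encoded by NPR1 and NPR2 are guanylyl cyclases that make cyclic GMP, NPR1 for the atrial and B-type peptides and NPR2 for the C-type peptide. The receptor encoded by NPR3 lacks the cyclase and clears the peptides.

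The natriuretic hormones share a ring closed by a bond between a pair of cysteines. The part that codes for it is shown for NPPB, the gene with the largest fitted difference here, beside that of its relative NPPC, the peptide gene with the lowest level. Capitals mark the cysteine codons that open and close the ring. The stretches, 51 bases each, are taken from the GENCODE 29 transcripts (GRCh38, 5′ to 3′, both on the minus strand and in exon 2 of the transcript used), at chr1:11858218-11858268 for NPPB and chr2:231925428-231925478 for NPPC.
NPPB ring: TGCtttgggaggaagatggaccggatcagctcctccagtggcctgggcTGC
NPPC ring: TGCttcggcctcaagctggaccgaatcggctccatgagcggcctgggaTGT
NPPB and NPPC matched at 37 of the 51 bases, and their longest identical run was 8 bases.

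NPPA (chr1:11845709-11848345) and NPPB (chr1:11857464-11858931) lie next to each other on the minus strand, 9118 bases apart in GENCODE 29 on GRCh38. Upstream sequence was available for 7 of the 8 genes in the RefSeq table (GRCh38.p14), NPPB being the exception. The 250 bases before the RefSeq start of NPPA (chr1:11847784-11848033, minus strand) are shown because the levels of this gene differed between media. GENCODE 29 starts NPPA further upstream, so these bases lie within its GENCODE span. They also lie within the gene CLCN6 on the plus strand (chr1:11806096-11848079). Capitals mark the motifs found.
NPPA upstream: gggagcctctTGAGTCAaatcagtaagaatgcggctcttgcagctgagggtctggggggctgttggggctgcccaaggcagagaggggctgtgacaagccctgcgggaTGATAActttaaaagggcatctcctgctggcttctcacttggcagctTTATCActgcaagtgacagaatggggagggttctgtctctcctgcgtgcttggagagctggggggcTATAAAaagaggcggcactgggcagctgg
Both strands were searched. The window held the AP-1 motif TGANTCA once, 240 to 234 bases before the start. It held the GATA motif TGATAA 142 to 137 bases before the start and, on the opposite strand, 95 to 90 bases before it. The TATA box motif TATAAA lay 29 to 24 bases before the start. No capital run belonged to more than 1 motif. Of 35116 windows of this length in the table, 6.57% held TGANTCA, 6.66% TGATAA and 10.7% TATAAA. The GATA form AGATAA (9.17% of windows), the NKX2-5 motif TNAAGTG (8.73%), the TEAD motif GGAATG (11.9%), the CArG box (1.16%) and the MEF2 motif (0.515%) were not among the letters of the NPPA window.

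The libraries held 23232324 to 31035389 gene counts. Levels are given as CPM (counts scaled to a common library size) after TMM scaling, which evens out differences in library composition. Genes of cardiomyocytes were abundant in every library: 12 listed markers summed to 28246 to 34841 CPM in RPMI plus B27 and 23207 to 30028 CPM in DMEM plus fatty acids, while 8 pluripotency markers summed to 27.8 to 70.4 CPM over all 6. Some markers of other cell types differed with the medium. The 15 fibroblast and stromal markers summed to 5140 to 9324 CPM in RPMI plus B27 and 1323 to 2720 CPM in DMEM plus fatty acids. The largest parts in RPMI plus B27 were the collagen genes COL1A1, COL1A2 and COL3A1. Of the 14 tested, 13 had negative log2 fold changes and 1 a positive one, DDR2 at 0.31. DDR2 and VIM (697 to 833 and 561 to 811 CPM) overlapped between media. The 10 smooth muscle markers summed to 2832 to 3555 against 978 to 2003 CPM, and the 8 endocardial markers, which include NPR3, to 292 to 499 against 157 to 255 CPM. Most of the endocardial sum was CDH11 (184 to 260 and 107 to 179 CPM) and HAPLN1 (72.1 to 201 and 8.27 to 37.5 CPM). The endocardial markers NFATC1 and GATA5 overlapped between media. The 10 epicardial markers summed to 1360 to 1649 against 629 to 707 CPM, but most of that sum was the keratin KRT8 (1065 to 1480 and 538 to 662 CPM), and WT1 was under 1 CPM in every library. The sums of the 8 endothelial markers overlapped (38.2 to 241 and 116 to 464 CPM), most of them KDR (27.5 to 239 and 115 to 463 CPM). KDR had a log2 fold change of 1.26 (edgeR adjusted p 0.434, and 0.0245 in the paired fit described below). The other 3 tested endothelial markers had negative log2 fold changes, EMCN -4.23, TEK -2.13 and TIE1 -0.97 (edgeR adjusted p 0.0960, 0.0960 and 0.389). All 3 were low, with highest values of 7.80, 1.13 and 1.06 CPM. CDH5 and ERG were at 0 in DMEM plus fatty acids but reached only 0.414 and 0.301 CPM in RPMI plus B27. The 11 ventricular markers summed to 10684 to 17554 against 5060 to 9487 CPM, and MYH7 was the largest part (7544 to 13359 and 2493 to 6082 CPM). Of the 10 ventricular markers tested, 8 had negative log2 fold changes and 2 positive ones, MYL3 at 0.02 and IRX4 at 0.39. The sums of the 15 atrial markers, a list that holds NPPA, overlapped between media (9749 to 13783 and 7103 to 13364 CPM), and so did those of the nodal, hepatic and neural markers. The part of these shifts in the results below was not tested. In bulk RNA, fewer cells of a type and less RNA per cell cannot be told apart.

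Both peptide genes of the cardiomyocyte were lower in DMEM plus fatty acids, NPPB by far the more. NPPB had 397, 216 and 224 CPM in RPMI plus B27 (replicates 1 to 3) and 18.5, 36.0 and 4.39 CPM in DMEM plus fatty acids. Every RPMI plus B27 library was above every DMEM plus fatty acids library, and the spread in DMEM plus fatty acids was wide, with replicate 3 lowest. The group levels were 279 ± 102 and 19.6 ± 15.9 CPM (mean ± SD, n = 3 each), a 14.2-fold difference of means. The fitted log2 fold change, with RPMI plus B27 as the reference throughout, was -3.83 ± 0.70 (SE), the 48th lowest of 16107 genes tested. Its adjusted p was 0.0540 by the edgeR quasi-likelihood test with Benjamini-Hochberg adjustment over all genes, just short of the threshold of 0.05. In a fit that pairs libraries of equal replicate number (the paired fit, or block), NPPB passed (log2 fold change -4.19 ± 0.59, edgeR adjusted p 0.0238).

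NPPA had 393, 185 and 155 CPM in RPMI plus B27 and 66.0, 66.3 and 86.0 CPM in DMEM plus fatty acids. The media did not overlap, replicate 1 stood far above the others in RPMI plus B27, and the DMEM plus fatty acids libraries lay close together. The group levels were 244 ± 129 and 72.8 ± 11.4 CPM (mean ± SD, n = 3 each), a 3.35-fold difference of means. The log2 fold change was -1.75 ± 0.35, the 365th lowest of 16107, and had an edgeR adjusted p of 0.0646. In the paired fit it passed (-1.63 ± 0.32, adjusted p 0.0460). Without RPMI plus B27 replicate 1 the fitted difference was smaller, at -1.22 on the log2 scale with an adjusted p of 0.0543. Since the strand setting of the counting is not given in the sources used here, reads where NPPA overlaps opposite-strand genes (2371 bases shared with CLCN6 in GENCODE 29) are uncertain.

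Both differences were also present relative to the summed counts of the 12 cardiomyocyte markers in the same library, a measure chosen after seeing the data. Per 1000 marker counts, NPPB had 7.60 to 11.4 counts in RPMI plus B27 and 0.189 to 1.27 in DMEM plus fatty acids. NPPA had 5.49 to 11.3 and 2.20 to 3.71. Neither gene overlapped between media on this scale. The marker sum itself was not made up alike in both media. Of its large parts, MYH7 had 7544 to 13359 CPM in RPMI plus B27 and 2493 to 6082 CPM in DMEM plus fatty acids. MYH6 went the other way, with 3504 to 5653 and 6760 to 10620 CPM.

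**Figure D1:**
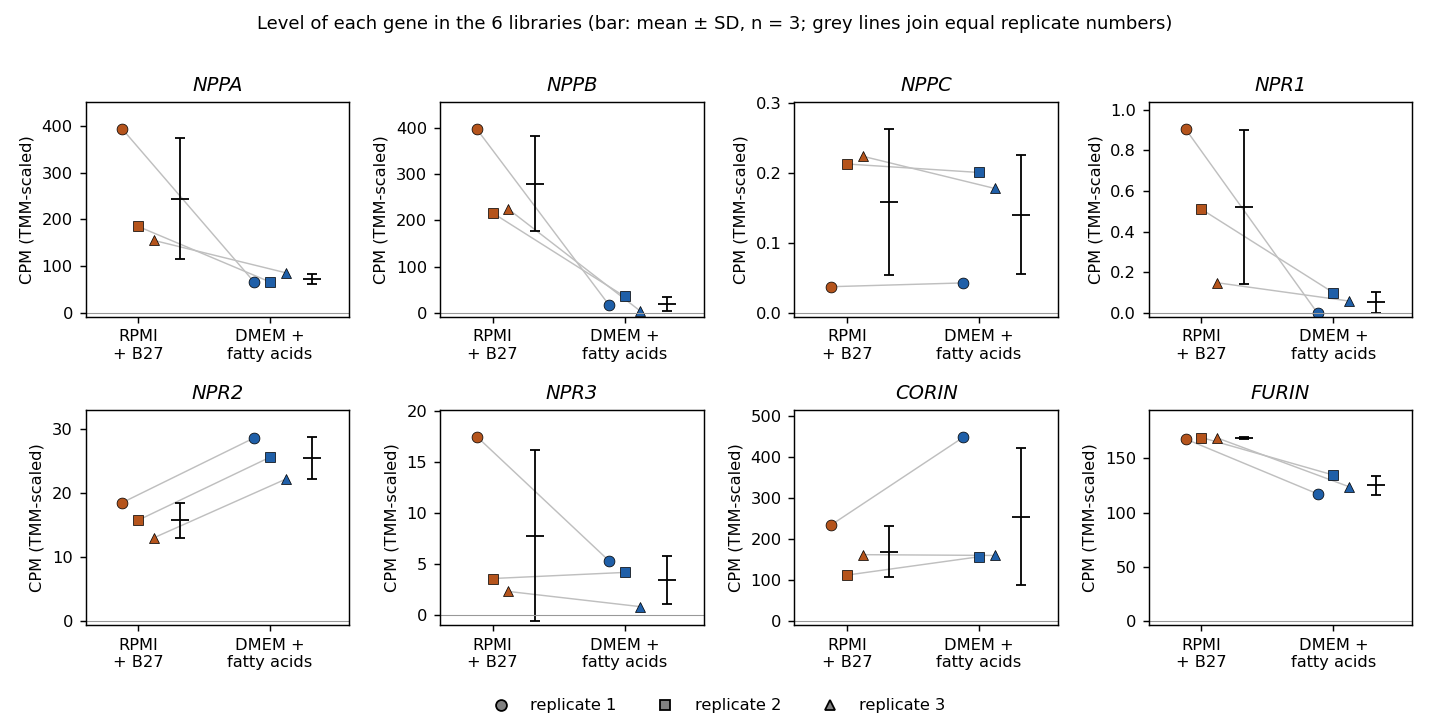
Level of each of the 8 genes (vertical axis, CPM with TMM scaling, a separate linear scale per gene) in RPMI plus B27 (orange) and DMEM plus fatty acids (blue). Each symbol is a library, grey lines join libraries with the same replicate number, and bars give the mean ± SD of 3 libraries. NPPB lies at 216 to 397 CPM in RPMI plus B27 and at 4.39 to 36.0 CPM in DMEM plus fatty acids, and NPR2 is higher in each DMEM plus fatty acids library.

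The size of the difference varied between replicate numbers. For NPPB, RPMI plus B27 was higher than DMEM plus fatty acids by 21.5-fold in replicate 1, 6.00-fold in replicate 2 and 51.1-fold in replicate 3. For NPPA it was higher by 5.95-fold, 2.79-fold and 1.80-fold. Replicate 3 thus had the largest NPPB difference and the smallest NPPA difference.

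The balance of the pair shifted within the library, where no scaling between libraries is needed. In RPMI plus B27 there were 1.01, 1.17 and 1.45 NPPB counts for each NPPA count (replicates 1 to 3). In DMEM plus fatty acids there were 0.280, 0.543 and 0.0510. NPPB thus made up 50.3% to 59.1% of the summed counts of the pair in RPMI plus B27 and 4.85% to 35.2% in DMEM plus fatty acids, with no overlap. The mean log2 ratio differed by -2.59 between media, a 6.04-fold shift away from NPPB (exact two-sided permutation p 0.1, which is the smallest that 3 against 3 libraries allow, and 0.15 adjusted over the 3 ratios tested). The ratio was lower in DMEM plus fatty acids for each of the 3 replicate numbers.

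NPPC was close to the limit of detection. It had 1, 5 and 6 counts in RPMI plus B27 and 1, 6 and 6 in DMEM plus fatty acids, so the filter on low counts removed it. The summed counts of 12 and 13 give a depth-adjusted ratio of 1.04, relative to RPMI plus B27, with an exact 95% interval of 0.437 to 2.49. This interval and the other count interval below pool the 3 libraries of each medium and treat every read as independent. They cover counting error only, not the spread between libraries, and the reads carry no molecular identifiers. A difference of NPPC within 0.437 to 2.49 was not detectable at this depth.

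Among the receptors, the cyclase receptor for the C-type peptide differed in the direction opposite to NPPA and NPPB. NPR2 (chr9:35792154-35809732) had 18.5, 15.8 and 13.1 CPM in RPMI plus B27 and 28.6, 25.6 and 22.2 CPM in DMEM plus fatty acids. All DMEM plus fatty acids libraries were above all RPMI plus B27 libraries, with little spread within a medium. The log2 fold change was 0.69 ± 0.18, with an edgeR adjusted p of 0.119, and NPR2 passed in the paired fit (0.70 ± 0.13, adjusted p 0.0387). Within replicate numbers NPR2 was 1.54-fold, 1.62-fold and 1.70-fold higher, the narrowest spread of differences among the 6 tested genes. Per 1000 cardiomyocyte marker counts it had 0.462 to 0.555 counts in RPMI plus B27 and 0.904 to 0.957 in DMEM plus fatty acids.

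NPR1 (chr1:153678637-153693992), the cyclase receptor for the atrial and B-type peptides, was barely detected. It had 24, 12 and 4 counts in RPMI plus B27 and 0, 3 and 2 in DMEM plus fatty acids. The media did not overlap, but every value was small, and the count of 0 allows up to 0.129 CPM in that library. The summed counts were 40 and 5, a ratio of 8.35 in favour of RPMI plus B27 with an exact 95% interval of 3.29 to 27.1. That interval leaves out the spread between libraries. NPR1 did not pass the low-count filter, and with no filter the edgeR adjusted p was 0.108.

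NPR3 (chr5:32689070-32791724), the clearance receptor, was uneven among libraries of the same medium. It had 17.5, 3.62 and 2.35 CPM in RPMI plus B27 and 5.38, 4.21 and 0.860 CPM in DMEM plus fatty acids. The media overlapped, and the highest value came from RPMI plus B27 replicate 1. The log2 fold change was -1.18 ± 0.88 (edgeR adjusted p 0.531, and 0.220 with the block), and without that library it turned to 0.22 (adjusted p 0.911). NPR3 had 0.901, 0.222 and 0.178 counts for each count of NPR1 plus NPR2 in RPMI plus B27 and 0.188, 0.164 and 0.0386 in DMEM plus fatty acids. This ratio overlapped between media (exact two-sided permutation p 0.2, adjusted 0.2).

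**Figure D2:**
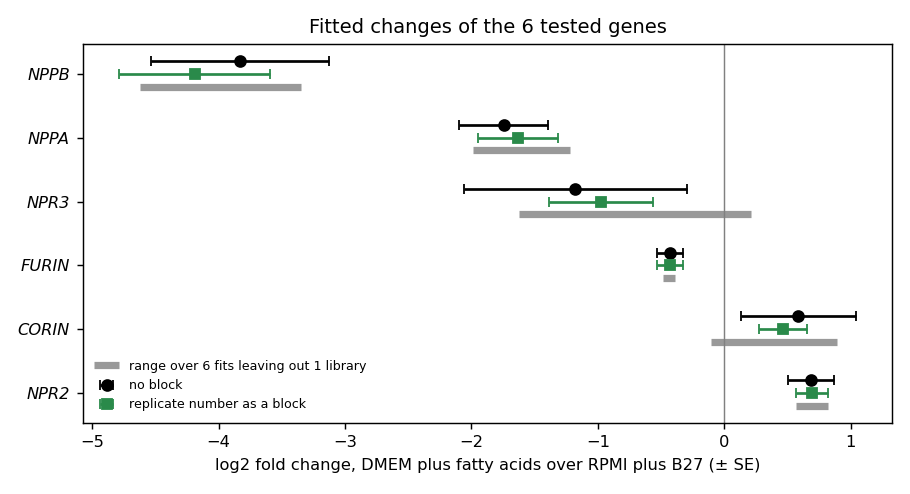
Fitted log2 fold change in DMEM plus fatty acids relative to the other medium (horizontal axis) of the 6 genes that passed the low-count filter. Circles and squares give the fit unpaired and paired by replicate number, with SE, and grey bars the range over the 6 fits that each leave out 1 library. The grey bars of NPR3 and CORIN cross 0, and those of NPPB, NPPA, FURIN and NPR2 do not.

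The processing proteases differed less. FURIN (chr15:90868592-90883458) had 168, 169 and 169 CPM in RPMI plus B27 and 117, 134 and 124 CPM in DMEM plus fatty acids. Its RPMI plus B27 libraries were nearly identical and all lay above the DMEM plus fatty acids libraries. The log2 fold change of -0.43 ± 0.11 had an edgeR adjusted p of 0.104 and of 0.0708 with the block, so FURIN passed in neither fit. Per 1000 cardiomyocyte marker counts the media overlapped (4.81 to 5.97 and 3.90 to 5.33 counts).

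CORIN (chr4:47593998-47838106) had 235, 113 and 163 CPM in RPMI plus B27 and 449, 157 and 161 CPM in DMEM plus fatty acids. The media overlapped, and in both of them replicate 1 was highest. The log2 fold change of 0.59 ± 0.45 did not pass (edgeR adjusted p 0.545, and 0.203 with the block), and without DMEM plus fatty acids replicate 1 it was -0.10 (adjusted p 0.909). The ratio of CORIN to its substrate gene NPPA did not overlap between media. In RPMI plus B27 there were 0.600, 0.610 and 1.05 CORIN counts for each NPPA count. In DMEM plus fatty acids there were 6.80, 2.37 and 1.87. The larger part of this shift was the NPPA difference given above. Within replicate numbers the log2 difference was -2.57, -1.48 and -0.85 for NPPA and 0.93, 0.48 and -0.02 for CORIN. The mean log2 ratio of CORIN to NPPA was 2.10 higher in DMEM plus fatty acids, or 4.28-fold (exact two-sided permutation p 0.1, adjusted 0.15).

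**Figure D3:**
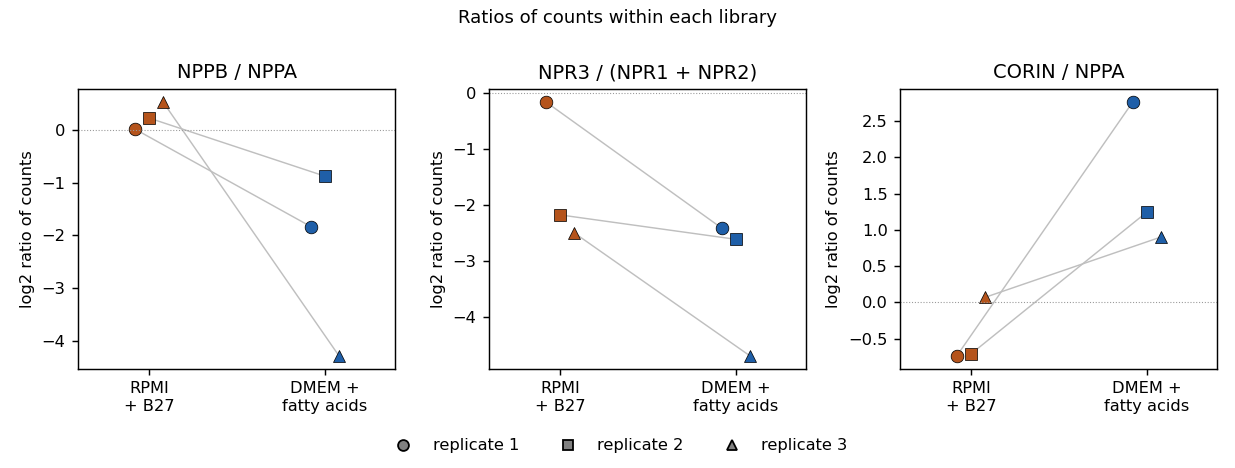
Log2 ratio of counts within each library (vertical axis) for NPPB to NPPA, NPR3 to the sum of NPR1 and NPR2, and CORIN to NPPA, in RPMI plus B27 (orange) and DMEM plus fatty acids (blue), with grey lines between equal replicate numbers. Before the log2, the NPPB to NPPA ratio lies at 1.01 to 1.45 in RPMI plus B27 and at 0.0510 to 0.543 in DMEM plus fatty acids, and the CORIN to NPPA ratio at 0.600 to 1.05 and 1.87 to 6.80.

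Read together, 0 of the 6 tested genes passed without the block, where 1.36% of all genes did (0.292% higher and 1.07% lower), and 4 had an unadjusted p under 0.05, where 17.7% of all genes did (edgeR). With the block 3 of the 6 passed (NPPA and NPPB lower, NPR2 higher), against 4.78% of all genes (1.36% higher and 3.42% lower). The DESeq2 Wald test called these 3 and FURIN, against 7.53% of all genes (2.4% higher and 5.13% lower). With no filter on low counts edgeR called NPPA and NPPB, against 2% of all genes (0.467% higher and 1.53% lower). The media did not overlap for 4 of the 6 (NPR2 higher and the other 3 lower), against 25.6% of all genes (12.8% in each direction).

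Compared per kilobase of exon (GENCODE 29), the order of the mean levels was nearly the same in both media, with NPPA and NPPB first and NPR1 last. In RPMI plus B27 the mean levels were 402 CPM per kilobase for NPPB, 218 for NPPA, 35.6 for FURIN, 16.9 for CORIN, 4.09 for NPR2, 0.793 for NPR3, 0.148 for NPPC and 0.104 for NPR1. Neighbours in that order did not overlap over the 3 libraries, except NPPB with NPPA and NPPC with NPR1. In DMEM plus fatty acids NPPA came first with 65.0 CPM per kilobase, ahead of NPPB with 28.3, FURIN with 26.5, CORIN with 25.3, NPR2 with 6.59, NPR3 with 0.353, NPPC with 0.131 and NPR1 with 0.0106. There the libraries of NPPA lay above those of NPPB, the ranges of NPPB, FURIN and CORIN overlapped, and so did those of NPR3 and NPPC. The lowest NPPB library (6.32) also lay within the range of NPR2 (5.74 to 7.41).

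Genes around the hormones were counted in lists chosen with earlier results of these data known. Of 16 genes for peptide processing and clearance, 15 were tested, 11 of them with a negative and 4 with a positive log2 fold change. Their median was -0.31, against 0.01 for all genes, and it was -0.13 without RPMI plus B27 replicate 2 and -0.17 without DMEM plus fatty acids replicate 1. SCG2 (secretogranin II, a granule protein) passed downward, from 6.07, 5.70 and 1.12 to 0.0861, 0.268 and 0.207 CPM (log2 fold change -4.45 ± 0.75, edgeR adjusted p 0.0452, and 0.0255 with the block, where it was again the single call). Of the 6 fits with a library left out, 1 called it. SCG2 was the only edgeR call among the 15 without the block, where 1.36% of all genes passed. An unadjusted p under 0.05 was found for 3 of the 15 (edgeR), where 17.7% of all genes had one. DESeq2 called 3, against 7.53% of all genes. DPP4, a peptidase that can trim the B-type peptide, had 33, 15 and 27 counts in RPMI plus B27 and 0, 3 and 5 in DMEM plus fatty acids (-3.37 ± 0.67, adjusted p 0.0640). The activator of corin, PCSK6, had 2.12 and 1.37 CPM on average (-0.63 ± 0.30, adjusted p 0.327). The clearing peptidases MME (neprilysin) and IDE (insulin-degrading enzyme) had log2 fold changes of -0.14 ± 0.27 and 0.14 ± 0.15 and overlapped between media.

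Of 25 genes for cyclic GMP synthesis and signalling, 22 were tested, 10 positive and 12 negative, with a median log2 fold change of -0.10 (-0.20 to 0.14 with a library left out, the positive value being that without RPMI plus B27 replicate 1). Without the block 0 passed by the edgeR test, and 7 had an unadjusted p under 0.05, where 17.7% of all genes did. DESeq2 called 5, against 7.53% of all genes. With the block 4 passed, against 4.78% of all genes, NPR2 upward and GUCY1B1, PDE5A and PDE10A downward. PDE5A, the phosphodiesterase that breaks down cyclic GMP and the target of sildenafil, had 32.1, 10.5 and 22.0 CPM in RPMI plus B27 and 4.43, 3.88 and 7.62 CPM in DMEM plus fatty acids. Its log2 fold change was -2.02 ± 0.44 (edgeR adjusted p 0.0810, and 0.0292 with the block). GUCY1B1, the beta subunit of the nitric oxide receptor, had 56.8, 30.8 and 21.8 against 12.7, 14.1 and 11.6 CPM (-1.51 ± 0.34, adjusted p 0.0834, and 0.0398 with the block). Its partner GUCY1A1 overlapped between media (-0.24 ± 0.16). PDE10A, another phosphodiesterase, had -0.70 ± 0.22 (adjusted p 0.174, and 0.0333 with the block). ABCC5, an exporter of cyclic nucleotides, had 143, 118 and 103 against 190, 172 and 214 CPM (0.66 ± 0.16, adjusted p 0.0948). OSTN (osteocrin), a peptide that binds the clearance receptor, had 5 counts in each RPMI plus B27 library and 41, 28 and 16 in DMEM plus fatty acids (2.39 ± 0.57, adjusted p 0.0950). The kinase gene PRKG1 overlapped between media (0.17 ± 0.25).

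Of 27 transcription factors known to act on NPPA or NPPB, all were tested and 0 passed in either edgeR fit. Without the block 5 had an unadjusted p under 0.05 (edgeR), where 17.7% of all genes did. DESeq2 called 2, against 7.53% of all genes. The median log2 fold change of the 27 factors was -0.10, with 10 positive and 17 negative. The cardiac factors GATA4 and NKX2-5 had 568 ± 57.7 and 375 ± 70.9 CPM (mean ± SD, n = 3) in RPMI plus B27. In the other medium they had 503 ± 60.9 and 335 ± 22.0 CPM, overlapping between media. The 4 smallest p values belonged to MEF2C, with 94.1 and 124 CPM on average (0.39 ± 0.10, edgeR adjusted p 0.123), to the SRF coactivator MYOCD (-0.45 ± 0.14, 0.165), to the Hippo pathway factor TEAD1 (-0.34 ± 0.11, 0.180) and to the stress-induced ATF3 (-1.28 ± 0.42, 0.183). RNA levels do not report the activity of these proteins.

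Of 26 genes of cardiomyocyte load and the foetal programme, a list that holds NPPA and NPPB, 21 were negative and 5 positive. The positive ones were UCHL1, NDRG4, MYH6 (0.86), ATP2A2 (0.36) and BAG3 (0.16). The list was not split by the direction that its genes take under load, so its signs and median are only a description. The median log2 fold change was -1.25, and -0.88 without NPPA and NPPB. Without RPMI plus B27 replicate 1 the median of the whole list was -0.68. EDN1 (endothelin 1) passed downward, from 30.4, 14.2 and 12.2 to 1.29, 1.74 and 0.978 CPM (-3.82 ± 0.44, edgeR adjusted p 0.0252). HBEGF (heparin-binding EGF-like growth factor) passed downward too, from 67.6, 44.0 and 53.8 to 14.1, 13.3 and 7.05 CPM (-2.26 ± 0.29, adjusted p 0.0292). Of the 6 fits with a library left out, 2 called EDN1 and 1 called HBEGF. These were the 2 edgeR calls of the list without the block, where 1.36% of all genes passed. An unadjusted p under 0.05 was found for 16 of the 26 (edgeR), where 17.7% of all genes had one. DESeq2 called 14, against 7.53% of all genes. With the block 11 passed, 2 higher and 9 lower, against 1.36% higher and 3.42% lower of all genes. The higher ones were UCHL1 (a ubiquitin hydrolase, 1.72 ± 0.32, adjusted p 0.0583 without the block and 0.0295 with it) and NDRG4 (1.17 ± 0.30, 0.116 and 0.00810). The lower ones included NPPA, NPPB, EDN1, HBEGF and CCN2.

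**Figure D4:**
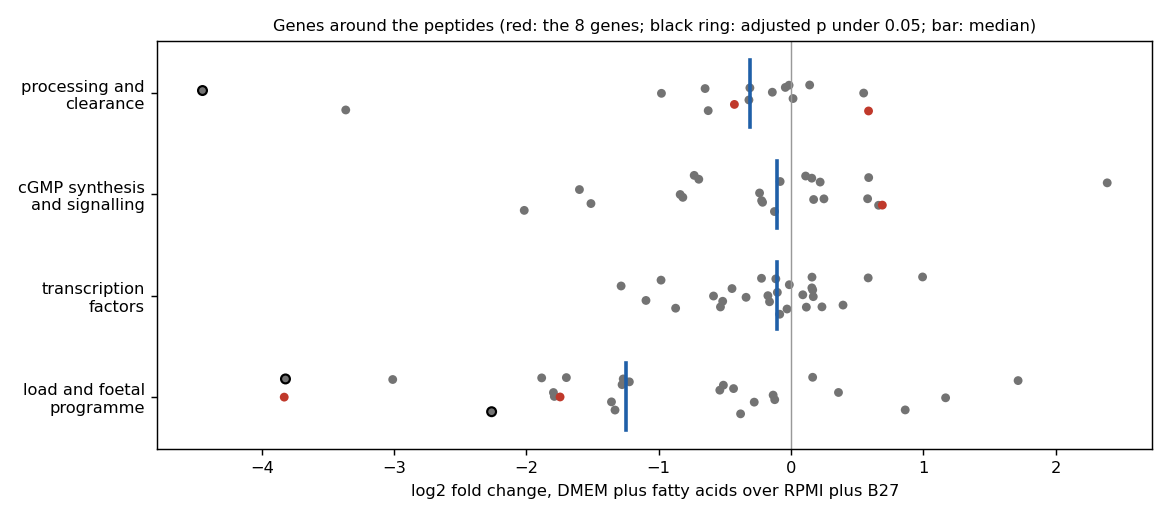
Fitted log2 fold change in DMEM plus fatty acids relative to the other medium (horizontal axis) of each tested gene in 4 lists (vertical axis, points spread for legibility), with the 8 genes in red, black rings where the adjusted p is under 0.05 without the block, and blue bars at the list medians. Transcription factors centre near 0 with a median of -0.10, while load and foetal programme genes have a median of -1.25 (-0.68 without RPMI plus B27 replicate 1).

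The genes whose profile over the 6 libraries was closest to that of NPPB were found by the root mean square difference of log2 CPM, each gene centred on its own mean, among 10023 genes with at least 10 CPM on average. They are a description with no test. Among the 5 nearest were CCN2 (connective tissue growth factor) at 0.51 log2 units, EDN1 at 0.74, EFEMP1 (fibulin 3) at 0.81 and STC1 (stanniocalcin 1) at 0.82. CCN2 had 760, 545 and 401 CPM in RPMI plus B27 and 50.2, 140 and 21.0 CPM in DMEM plus fatty acids. Within DMEM plus fatty acids both CCN2 and NPPB were highest in replicate 2 and lowest in replicate 3, and in RPMI plus B27 CCN2 was lowest in replicate 3 but NPPB in replicate 2.

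NPPA and NPPB lay 1.65 log2 units apart by this measure. Among the 10023 genes NPPA ranked 132nd by closeness to NPPB, while NPPB ranked 9980th by closeness to NPPA. The measure is not scaled for the size of a gene's differences, so a gene with large ones, such as NPPB, lies far from most genes. The rank of 9980 therefore does not mean opposite profiles, and both genes were lower in DMEM plus fatty acids for each replicate number. Closest to NPPA were P3H3 (prolyl 3-hydroxylase 3) at 0.14, ERRFI1 (a feedback inhibitor of the EGF receptor) at 0.18, WDR54 and HLA-B at 0.19 each and ADAMTSL4 at 0.20. P3H3 had 29.4, 13.5 and 10.9 CPM in RPMI plus B27 and 4.13, 3.88 and 4.92 CPM in DMEM plus fatty acids. As for NPPA, RPMI plus B27 replicate 1 was far above the rest.

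CLCN6 and KIAA2013, the closest genes on each side of NPPA and NPPB among those listed and tested, did not pass the edgeR test. Of 17 listed genes around them on chromosome 1, 14 were tested, 10 negative and 4 positive, with a median log2 fold change of -0.20, or -0.10 without NPPA and NPPB. The median of the whole list was -0.50 without DMEM plus fatty acids replicate 3, -0.31 without RPMI plus B27 replicate 3 and -0.09 without DMEM plus fatty acids replicate 1. CLCN6, a chloride transporter gene on the opposite strand, shares 2371 bases with NPPA, so its counts carry the same strand uncertainty. It had 51.3, 51.5 and 48.4 CPM in RPMI plus B27 and 130, 68.2 and 50.1 CPM in DMEM plus fatty acids. The media overlapped (0.72 ± 0.32, edgeR adjusted p 0.302). On the other side KIAA2013, 60659 bases from NPPB, went from 73.8 ± 6.56 to 51.5 ± 3.39 CPM (SD, n = 3 each), which did not overlap (-0.52 ± 0.12, adjusted p 0.0848). PLOD1, a collagen lysyl hydroxylase gene further out, passed downward, from 456, 315 and 324 to 165, 185 and 171 CPM (-1.07 ± 0.17, adjusted p 0.0402, and called in 0 of the 6 fits with a library left out). PLOD1 was the only edgeR call among the 14 without the block, where 1.36% of all genes passed. An unadjusted p under 0.05 was found for 7 of the 14 (edgeR), where 17.7% of all genes had one. The antisense gene NPPA-AS1 had 1 to 5 counts per library and was not tested.

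**Figure D5:**
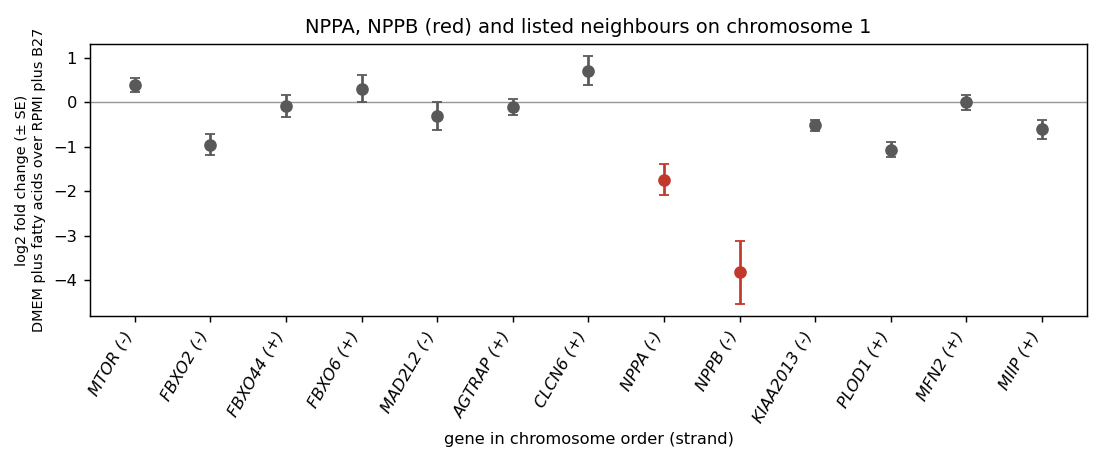
Fitted log2 fold change with SE in DMEM plus fatty acids relative to the other medium (vertical axis) of tested genes around NPPA and NPPB (red), 1 of the 14 not being shown, in their order along chromosome 1 with the strand in brackets (horizontal axis, not to distance). NPPB at -3.83 and NPPA at -1.75 are the lowest points. CLCN6, which overlaps NPPA, is plotted on one side at 0.72 and KIAA2013 on the other at -0.52.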

How the data were processed

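The files the authors deposited hold unnormalised read counts for each gene symbol, with a file for every library. STAR, HTSeq and the build hg38 are named in the submitters' processing notes, whose versions, annotation and strand setting are not given in the sources used here. Per the labels, libraries were made with a strand-specific kit for mRNA. Summary rows that name no gene (12.8% to 15.6% of each library) were left out. Groups and replicate numbers came from the titles. The 8 genes, the gene lists and the tests were chosen with earlier results of these data known.

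The test was that of edgeR 4.0.16 (R 4.3.3): filterByExpr (minimum count 10, minimum total 15), which left 16107 genes, TMM scaling, the quasi-likelihood test over all 6 libraries without covariates, and Benjamini-Hochberg adjustment over all genes with a threshold of 0.05. DESeq2 1.42.0 was an alternative. SEs are those implied by the F statistic. Log2 CPM used a prior count of 2. The floor for a 0 was set at 3 counts. Ratios were taken on raw counts and compared by exact permutation tests (SciPy 1.17.1). No 2 libraries agreed within sampling noise (chi-square per degree of freedom of at least 29.4). Of the lists, 1 symbol was matched through its older name.

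The replicate numbers were taken to pair the libraries, because deviations from the medium's mean correlated across genes at 0.31, 0.43 and 0.37 for equal numbers and at -0.24 to -0.14 for unequal ones. The deviations sum to 0 over the 3 libraries of a medium, so positive values for equal numbers push those for unequal numbers below 0. The negative values are therefore no separate evidence of pairing. The labels do not say what equal numbers share. The block left 2 residual degrees of freedom in place of 4.

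All 8 genes were named. Of a list, the called genes and otherwise the 4 with the smallest p were named, with the genes beside NPPA and NPPB and the 5 nearest profiles; a few items that this rule names are not reported here. GUCY1A1, PRKG1, MME, IDE, GATA4, NKX2-5, PDE10A, NDRG4, MYH6, ATP2A2, BAG3 and the single marker genes with values are outside the rule and were chosen for naming once their values were known.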

Additional observations from a re-analysis of the deposited data

How the results depend on the processing

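The number of the 8 genes past the threshold was 0 without the block, 3 with the replicate block, 4 by the DESeq2 Wald test, 2 (NPPA and NPPB) with no filter on low counts, and 0 in each fit that left out 1 library (lowest 0, highest 0), and under RLE scaling, total counts or at least 10 counts in every library. Over all genes 219 passed, 770 with the replicate block, 1212 by DESeq2, 539 with no filter, 119 with at least 10 counts in every library, and 3 (without DMEM plus fatty acids replicate 3) to 131 (without RPMI plus B27 replicate 3) with a library left out; each of the 6 omissions moved this count by over 1.5 times. The block changed the call of NPPA, NPPB and NPR2 and of no other of the 6 tested genes. Scaling by total counts shifted the all-gene median log2 fold change from 0.01 to 0.12. NPPA, NPPB, NPR2 and FURIN kept their direction under each of these settings. NPR3 turned to 0.22 without RPMI plus B27 replicate 1, and CORIN to -0.10 without DMEM plus fatty acids replicate 1. Leaving out 1 library gave -4.62 to -3.35 for NPPB, -1.99 to -1.22 for NPPA, 0.57 to 0.82 for NPR2, -0.48 to -0.39 for FURIN, -1.63 to 0.22 for NPR3 and -0.10 to 0.89 for CORIN. The NPPB to NPPA log2 ratio differed by -3.32 to -1.62, NPR3 to NPR1 plus NPR2 by -2.08 to -0.91 and CORIN to NPPA by 1.53 to 2.47. Sign-flip tests of these 3 ratios within replicate numbers, the paired form, each gave the smallest p that 3 pairs allow, 0.25. The 5 profiles nearest to NPPB and to NPPA were the same under total counts. The cause of these shifts was not tested. Depth limits NPPC, NPR1 and NPPA-AS1.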
